A study of Mus musculus with 6 samples.

Results

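The genes described here are the nuclear genes whose symbols match the subunits of respiratory complexes II to V, with the somatic cytochrome c gene Cycs. They were chosen by symbol from a deposited table of 24532 genes: the succinate dehydrogenase genes Sdha to Sdhd, all symbols beginning with Uqcr, Cox4 to Cox8 or Atp5, and Cyc1 and Cycs. This gave 49 genes: 4 of complex II, 9 of complex III, Cycs, 17 of complex IV, 15 of complex V, and 3 that share a symbol prefix but encode no subunit (Cox7a2l, Atp5s and Atp5sl). RNA had been sequenced from the gastrocnemius, the large calf muscle, of 6 C57BL/6 mice aged 12 weeks. All 6 carried homozygous floxed Usp21 alleles (USP21 flox/flox). The 3 controls, whose genotype is entered as Litter, have titles that name no Cre, and the 3 knockouts also carried Ckmm-Cre. This Cre is under the control of the muscle creatine kinase promoter, so it acts in striated muscle fibres and the other cells of the tissue keep the gene. The comparison asks how loss of Usp21, a ubiquitin-specific protease, bears on the RNA of the respiratory chain.

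Complex II oxidises succinate and passes the electrons to ubiquinone, complex III moves them on to cytochrome c, complex IV (cytochrome c oxidase) gives them to oxygen, and complex V (ATP synthase) uses the proton gradient to make ATP. Complex II is encoded in the nucleus alone, whereas complexes III, IV and V also hold subunits of the mitochondrial genome, which are not analysed here. Several complex IV subunits exist as isoforms from separate genes. In rodents Cox6a2, Cox7a1 and Cox8b are the isoforms of striated muscle, and Cox6a1, Cox7a2 and Cox8a are found in most tissues. Oxidative fibres, which include the slow-twitch type, hold more mitochondria than fast glycolytic fibres.

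The sequences before the transcription start are shown for 5 of the 6 genes of the isoform pairs (all but Cox6a2), since the level of the RNA differs several-fold between the genes of a pair. They are the 250 bases upstream of a RefSeq start in GRCm38.p6, the assembly that mm10 names, each read 5′ to 3′ on the gene's own strand. The window of Cox7a2 lies inside the RefSeq span of the gene (chr9:79755241-79771422), so any start further upstream is not covered. Cox6a1 lies at chr5:115348959-115349208 (minus strand), Cox7a1 at chr7:30183921-30184170 (plus strand), Cox7a2 at chr9:79759854-79760103 (minus strand), Cox8a at chr19:7217617-7217866 (minus strand) and Cox8b at chr7:140900447-140900696 (minus strand). Capitals mark every match to 5 motifs searched on both strands: GCGC, any base, then TGCGC (nuclear respiratory factor 1), CCGGAAG (ETS factors), AAGGTCA (estrogen-related receptors), CAGCTG (an E-box of myogenic factors) and TATAAA.
Cox6a1: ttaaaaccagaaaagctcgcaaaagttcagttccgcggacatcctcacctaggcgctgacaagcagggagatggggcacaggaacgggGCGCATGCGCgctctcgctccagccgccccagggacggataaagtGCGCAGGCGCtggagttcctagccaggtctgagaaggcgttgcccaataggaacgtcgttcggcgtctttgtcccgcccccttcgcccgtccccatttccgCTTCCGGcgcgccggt
Cox7a1: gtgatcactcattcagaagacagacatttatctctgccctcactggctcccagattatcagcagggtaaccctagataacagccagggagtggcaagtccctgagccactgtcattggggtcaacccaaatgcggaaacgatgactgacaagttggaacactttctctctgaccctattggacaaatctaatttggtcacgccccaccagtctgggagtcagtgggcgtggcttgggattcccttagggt
Cox7a2: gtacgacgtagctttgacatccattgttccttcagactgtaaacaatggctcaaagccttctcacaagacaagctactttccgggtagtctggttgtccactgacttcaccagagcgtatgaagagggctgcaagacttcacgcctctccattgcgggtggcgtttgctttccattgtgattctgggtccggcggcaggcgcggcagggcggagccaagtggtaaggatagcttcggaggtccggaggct
Cox8a: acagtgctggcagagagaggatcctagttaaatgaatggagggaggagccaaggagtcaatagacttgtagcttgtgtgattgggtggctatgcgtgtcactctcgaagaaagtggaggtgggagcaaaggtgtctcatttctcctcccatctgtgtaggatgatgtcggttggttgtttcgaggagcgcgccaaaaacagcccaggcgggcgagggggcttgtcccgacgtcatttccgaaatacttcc
Cox8b: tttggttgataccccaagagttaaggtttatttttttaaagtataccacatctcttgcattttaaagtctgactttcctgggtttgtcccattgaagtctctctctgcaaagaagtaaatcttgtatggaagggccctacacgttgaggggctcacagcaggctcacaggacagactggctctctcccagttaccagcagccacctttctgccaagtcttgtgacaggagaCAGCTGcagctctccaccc

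Cox6a1, a broadly expressed isoform, held 2 matches to the nuclear respiratory factor 1 motif, GCGCATGCGC and GCGCAGGCGC, and 1 to the ETS motif. Cox8b, a muscle isoform, held 1 E-box, 19 bases before the start. The windows of Cox7a1, Cox7a2 and Cox8a held none of the 5. RefSeq windows were matched for 38 of the 49 genes, 37 of them tested. Of the 37, 7 (18.9%) held the nuclear respiratory factor 1 motif, against 8.72% of the 11136 genes that were tested and had a window. These 7 were Sdha, Sdhd, Cox6a1, Atp5c1, Atp5g2, Atp5h and Atp5k. The ETS motif was in 9 of 37 (24.3%, against 14.6%), the estrogen-related receptor motif in 2 (5.41%, against 3.56%), the E-box in 2 (5.41%, against 14.8%) and TATAAA in 1 (2.70%, against 8.41%). A match describes letters in a window and shows no binding.

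The genes were among the abundant RNAs of this muscle, taking between 1.73% and 2.19% of all counts in a library. Levels between genes are compared in FPKM, the authors' values scaled by transcript length and library size, as means over the 6 libraries. The catalytic beta subunit Atp5b was the highest at 1613 FPKM, followed by Cox6a2 at 1140.1 and the alpha subunit Atp5a1 at 974. The 15 genes of complex V lay between 322 (Atp5g2) and 1613 FPKM, the 9 of complex III between 176 (Uqcrq) and 536 (Uqcrb), and the 4 of complex II between 195 (Sdhd) and 380.2 (Sdhb). Cycs stood at 119.9 FPKM. Complex IV spanned the widest range, down to isoform genes of other tissues. Cox4i2, an isoform known from lung and hypoxic tissue, stood at 2.71 FPKM against 756 FPKM for Cox4i1. The testis isoform Cox6b2 stood at 0.291 FPKM against 585 FPKM for Cox6b1. Cox7b2 and Cox8c, also testis isoforms, had no count in any library, which allows up to 3 counts or between 0.0454 and 0.0598 CPM (read counts scaled to library size, with TMM factors that correct for RNA composition) in a library, by counting error alone.

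**Figure D1:**
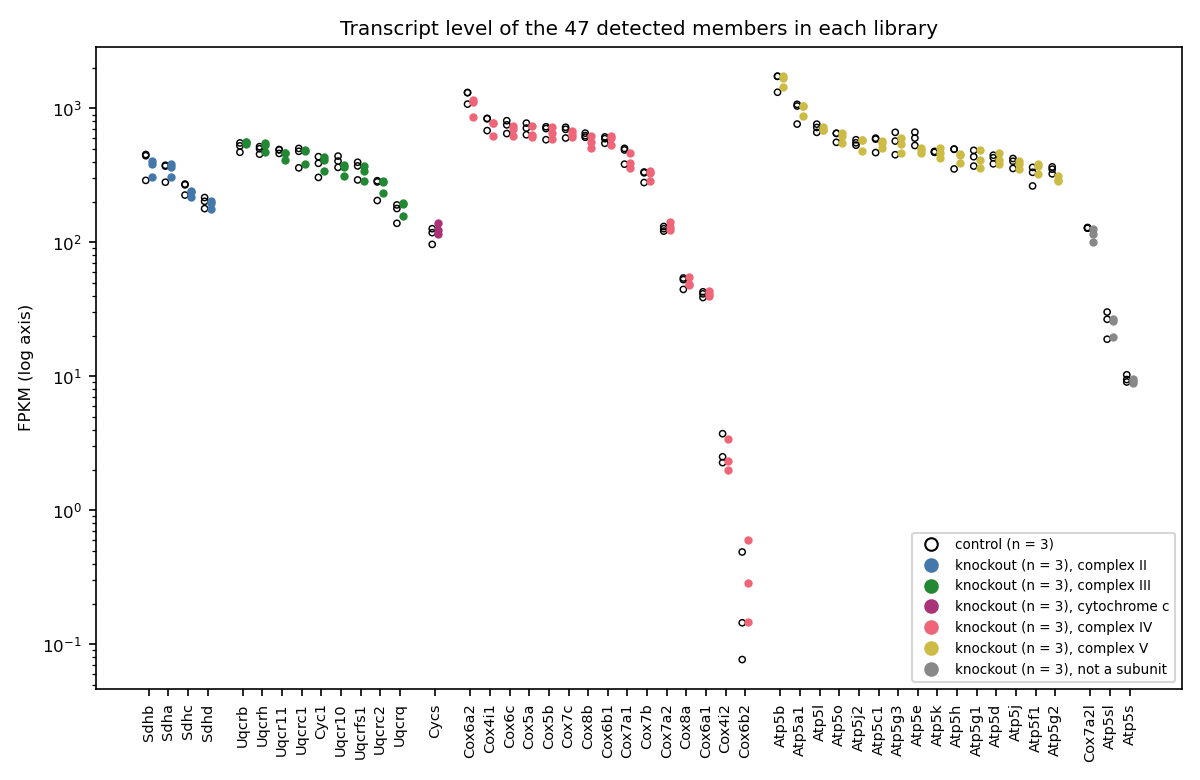
FPKM (log axis) of the 47 detected genes in each of 3 control (open circles) and 3 knockout libraries (filled circles), grouped by complex and ordered by mean level. Most subunit genes lie between 119.9 and 1613 FPKM, and the low points of complex IV are Cox8a, Cox6a1, Cox4i2 and Cox6b2.

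Usp21 was lower in every knockout library, at 19.3, 19.3 and 19.1 CPM in controls 1 to 3 and 9.08, 7.19 and 7.46 CPM in knockouts 1 to 3 (log2 fold change -1.28, SE 0.11, edgeR adjusted p = 0.0355). Libraries held 48658436 to 67332846 counts. Of the markers of the labelled tissue, the fast-twitch myosin Myh4 stood at 41508 to 76103 CPM. Of 5 heart muscle genes, Nppa and Nppb had no count in any library, and the cardiac myosin Myh6 was at 0.892 to 21.4 CPM. Of 7 adipocyte genes, Ucp1 had no count, Adipoq was at 5.201 to 28.7 CPM and Fabp4 at 173 to 261 CPM. Control 3 stood apart from the other libraries. The summed level of 10 slow-twitch fibre genes was 207 CPM in control 3, against 1627 and 1601 CPM in controls 1 and 2 and 1196, 831 and 1938 CPM in knockouts 1 to 3. All 10 were detected, and their median log2 fold change was 0.45, with 6 of 10 positive. The slow myosin Myh7 itself was at 293, 268 and 6.62 CPM in controls 1 to 3 and 235, 179.6 and 416 CPM in knockouts 1 to 3. Myh2, the myosin of oxidative fast fibres, was at 1192 CPM in control 3 and between 2182 and 4709.8 CPM in the other 5 libraries. Fibroblast markers had 8 of 8 log2 fold changes above 0, with a median of 0.43 and 0 called by edgeR. At an unadjusted edgeR p under 0.05, 4 were higher and 0 lower, against 6.56% higher and 5.07% lower over all genes. Their summed level was 1663 to 2555 CPM in controls and 2543 to 3036 CPM in knockouts. Macrophage markers had 6 of 7 above 0, with a median of 0.40 and 0 called by edgeR. At an unadjusted edgeR p under 0.05, 1 of them (Itgam) was higher and 0 were lower. Their summed level was 48.1 to 84.1 CPM in controls and 54.6 to 87.9 CPM in knockouts. The part of either list in the results was not tested.

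Most of the 47 tested genes were also lowest in control 3. This library was the lowest of the 3 controls for 36 of 47 tested genes and the lowest of all 6 libraries for 31 of 47, whereas it was the lowest of the 6 for 21.7% of all genes tested. The median gene of complex II in control 3 was -0.18 on the log2 CPM scale from its own mean over the 6 libraries, and the corresponding deviations were -0.19 for complex III, -0.10 for complex IV and -0.11 for complex V. For 37 genes with Ndufa, Ndufb, Ndufc, Ndufs or Ndufv symbols, mostly complex I subunits, the deviation was -0.040 in control 3. It was -0.042 in control 2 and -0.063 in knockout 2. Compared with the mean of controls 1 and 2, Sdhb was 30.9% lower in control 3, Atp5h 24.1%, Uqcrc2 23.3% and Atp5a1 22.9% lower. Not all subunits shared this. Atp5g2 was 8.53% higher in control 3, Uqcr10 7.29%, Atp5e 7.21%, Atp5k 6.79% and Cox8b 5.85% higher. Among the knockouts, knockout 2 had the lowest slow-fibre sum and was the lowest for 36 of 47 genes. Matching shares over all genes, for control 3 among the controls and knockout 2 among the knockouts, were not computed. The summed level of the 7 adipocyte genes was highest in control 3 and knockout 2, at 343 and 489 CPM, against 223 to 265 CPM in the other 4. The adipokine Cfd, for example, was at 47.8, 29.8 and 125 CPM in controls 1 to 3 and 59.6, 182 and 56.2 CPM in knockouts 1 to 3. Adipoq, Plin1 and Retn were also highest in these libraries, but not all markers were. Fabp4 was lowest of the 6 libraries in control 3 (173 CPM) and highest in knockout 2 (261 CPM). Lep was highest in control 3 (7.87 CPM) but at 1.78 CPM in knockout 2, against 5.44 CPM in control 1. In these bulk samples fewer fibres of a type and less RNA per fibre cannot be told apart, and the part of fibre type or adipocyte RNA in the values below was not tested beyond giving them without control 3.

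**Figure D2:**
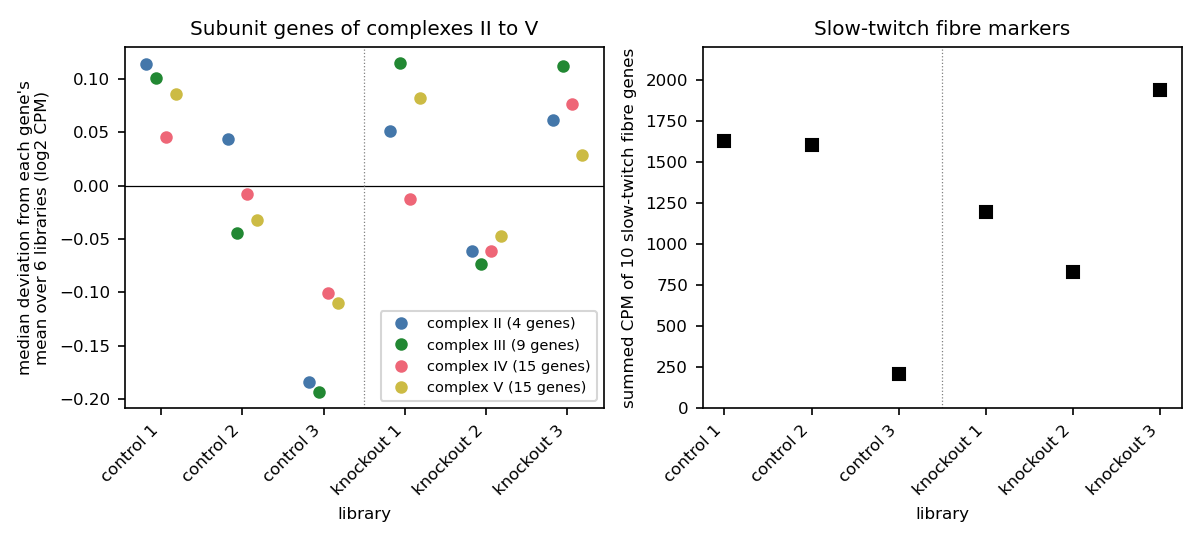
Left, median deviation of the tested genes of complexes II to V from each gene's mean over the 6 libraries (log2 CPM), by library; right, summed CPM of 10 slow-twitch fibre genes in the same libraries. Control 3 is lowest in both panels, and the knockout points of the left panel lie within the range of the control points or just above it.

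No gene of the respiratory complexes passed the threshold of 0.05 for the adjusted p in the comparison of knockout with control. With edgeR's quasi-likelihood test 0 of 47 tested genes were called, against 0.0567% of the 14109 genes tested (8 genes). At an unadjusted p under 0.05, 1 gene (Uqcrb) was higher and 0 were lower, against 6.56% higher and 5.07% lower over all genes. DESeq2 also called 0 of the 47, against 2.14% of all genes (290 of 13555 with an adjusted p), and limma-voom 0, against 0.0354% (5 of 14109). At an unadjusted p under 0.05 each of these tools had 1 of the 47 higher (Uqcrb) and 0 lower, against 7.43% higher and 5.01% lower of all genes with DESeq2 and 6.27% and 5.03% with limma-voom. Other settings differed. With upper-quartile scaling 0 were higher and 0 lower (1642 of all 14109 genes in either direction), as with the replicate number as a block (1164). With limma on log2(FPKM + 1) 0 were higher and 2 lower (1886 of 14109). Without control 2, 0 were higher and 3 lower (1690 of 14288). The groups did not overlap for 4 genes, all higher in knockouts (Uqcrb, Uqcrh, Cox6a1 and Cox7a2), against 8.38% of all genes higher and 8.87% lower. As 4 of 47, the higher genes are near that background.

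The differences were also small in size. The 45 genes with a mean of at least 500 counts had fold changes between 0.853 (Atp5e) and 1.17 (Cycs), with standard errors of 0.072 to 0.16 on the log2 scale. The 95% interval of the fold change lay within 1.5-fold in both directions for 45 of 47 genes. The exceptions were Cox4i2 and Cox6b2, with 79 to 139 and 3 to 18 counts in a library. Of the 47 log2 fold changes 31 were above and 16 below 0 (median 0.043), against 49.3% above and 50.7% below over all genes (median -0.0037). This split turned to 22 positive and 25 negative without control 3 (median -0.020), and to 16 and 31 with limma on log2 FPKM (median -0.029). It widened to 36 positive and 11 negative without control 1 (median 0.085), and likewise to 36 and 11 without knockout 2 (median 0.071). For comparison, 78 mitochondrial ribosomal protein genes had a median of 0.0043. A set of 37 genes with Ndufa, Ndufb, Ndufc, Ndufs or Ndufv symbols, mostly complex I subunits, had a median of 0.0037. The difference between these sets was not tested.

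**Figure D3:**
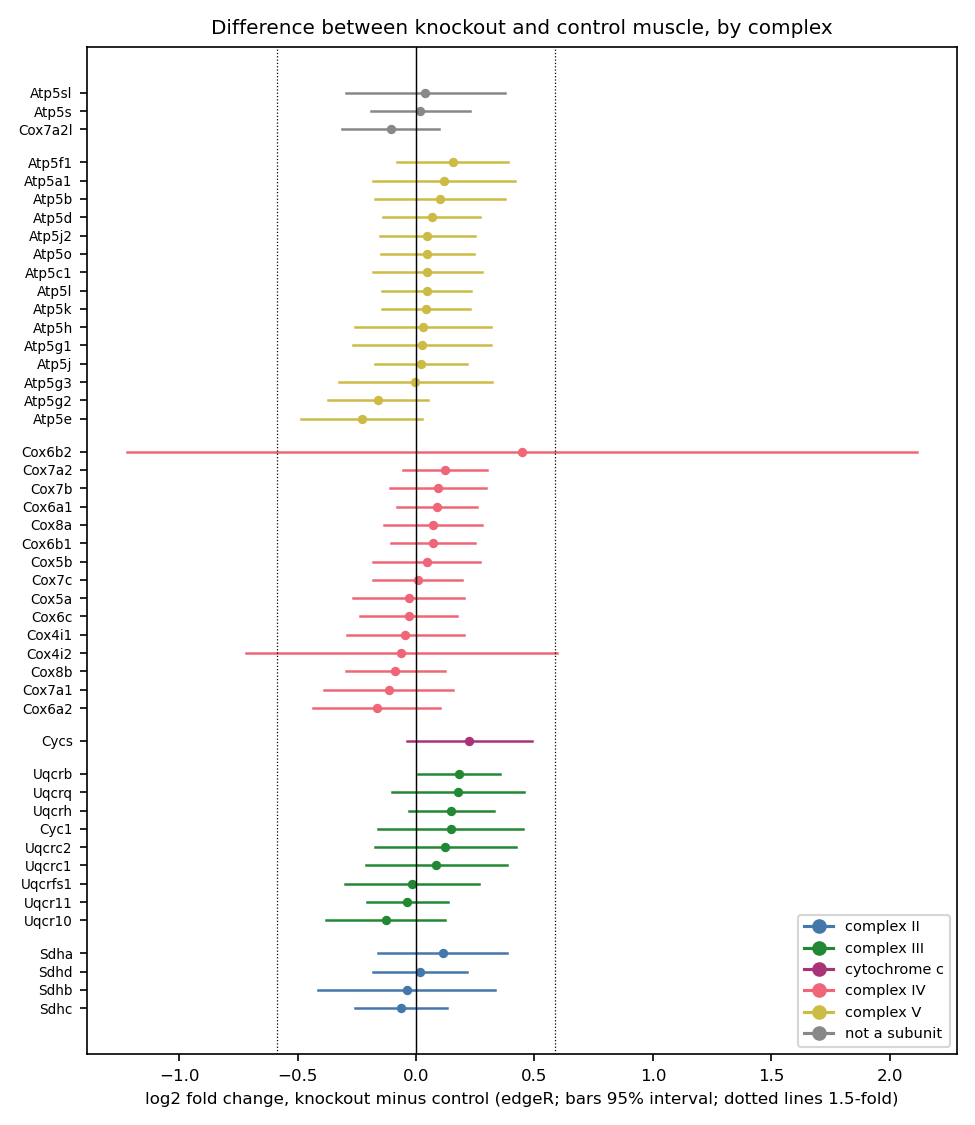
log2 fold change (knockout minus control, edgeR) of the 47 tested genes with 95% intervals, grouped by complex; dotted lines mark 1.5-fold. Uqcrb is the gene whose interval lies wholly above 0, and the intervals of Cox4i2 and Cox6b2 cross the dotted lines.

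Complex II showed no shared shift. Its 4 genes had a median log2 fold change of -0.012, with 2 positive and 2 negative. The flavoprotein Sdha, which binds succinate, was at 1043, 1024 and 830.2 CPM in controls 1 to 3 and 1059, 958 and 1113 CPM in knockouts 1 to 3 (log2 fold change 0.11, SE 0.12, edgeR adjusted p = 0.745). Its control 3 value was the lowest of all, and the other 5 libraries overlapped. The membrane anchor Sdhc, which with Sdhd holds the enzyme in the inner membrane, was at 316, 301 and 274 CPM in controls 1 to 3 and 284, 278 and 292 CPM in knockouts 1 to 3 (log2 fold change -0.063, SE 0.083, edgeR adjusted p = 0.810). Here the knockouts sat within the range of the controls. The log2 fold change of the iron-sulphur subunit Sdhb was -0.040 and that of Sdhd 0.016. Of the 4 genes Sdhb varied most within the controls, with a coefficient of variation of 19.9%. Without control 3 the median of the complex was -0.073, without control 1 it was 0.059, and with limma on log2(FPKM + 1) it was -0.074.

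Complex III had the highest median of the 4 complexes, at 0.12, with 6 of 9 genes positive. Without control 3 this median was 0.0067, and with limma on log2(FPKM + 1) it was 0.060. The median was 0.17 without control 1 and 0.17 without knockout 2. The small subunit Uqcrb had the smallest p of all 47 genes. It stood at 259.8, 264 and 244 CPM in controls 1 to 3 and 289, 293 and 289 CPM in knockouts 1 to 3, so every knockout library lay above every control. Control libraries averaged 256 ± 10.5 CPM and knockout libraries 290.4 ± 2.24 CPM (mean ± SD, n = 3). The log2 fold change was 0.18 (95% interval 0.0081 to 0.35, edgeR adjusted p = 0.411), a difference of 13.3% that did not pass. The hinge protein Uqcrh, which lies close to cytochrome c1, was at 268, 269 and 257 CPM in controls 1 to 3 and 294, 279.5 and 307 CPM in knockouts 1 to 3 (log2 fold change 0.15, SE 0.077, edgeR adjusted p = 0.507), again without overlap. Without control 3 the log2 fold changes were 0.15 for Uqcrb and 0.13 for Uqcrh.

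The catalytic subunits of complex III gave log2 fold changes on either side of 0. That of cytochrome c1 (Cyc1) was 0.15 and that of the Rieske iron-sulphur protein Uqcrfs1 -0.016. The core proteins Uqcrc1 and Uqcrc2 had log2 fold changes of 0.086 and 0.12, and without control 3 of -0.023 and 0.0067. For the remaining small subunits the log2 fold change was 0.18 for Uqcrq, -0.037 for Uqcr11 and, for Uqcr10, -0.13. In FPKM, Uqcrb was the highest and Uqcrq the lowest gene of the complex, at 516 ± 41.7 and 169 ± 27.1 FPKM in controls (SD, n = 3 each). Cycs, the mobile carrier between complexes III and IV, was at 381, 344 and 305 CPM in controls 1 to 3 and 431, 411 and 361 CPM in knockouts 1 to 3. Knockouts 1 and 2 lay above every control, and knockout 3 lay between controls 1 and 2. Its difference was the largest positive one among genes with at least 500 counts (log2 fold change 0.23, SE 0.11, edgeR adjusted p = 0.496; 0.15 without control 3). Reads of Cycs may be shared with its processed pseudogenes, so its level is uncertain.

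In complex IV the muscle isoforms were the main RNA of each pair. Cox6a2 made up 95.6% to 97.0% of the FPKM of the Cox6a pair in a library, Cox8b 91.3% to 93.4% of the Cox8 pair and Cox7a1 73.4% to 79.9% of the Cox7a pair. In control muscle Cox6a2 stood at 1233 ± 136 FPKM and Cox6a1 at 40.9 ± 2.02 FPKM (SD, n = 3 each). Cox8b and Cox8a stood at 629 ± 22.5 and 50.5 ± 5.19 FPKM, and Cox7a1 and Cox7a2 at 459 ± 65.7 and 126 ± 4.999 FPKM. The transcripts of a pair shared no exact run longer than 12 bases (Cox6a, Cox7a) or 10 bases (Cox8) in GENCODE M21. Likeness with mismatches was not measured, so how far reads of one gene could align to the other is not known. Cox6a2 (Entrez 12862) lies on chromosome 7 at 128205435 to 128206366, Cox7a1 (12865) on chromosome 7 at 30184171 to 30186030 and Cox8b (12869) on chromosome 7 at 140898942 to 140900446. Cox6a1 (12861) lies on chromosome 5, Cox7a2 (12866) on chromosome 9 and Cox8a (12868) on chromosome 19.

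All 3 muscle isoforms had negative and all 3 broad isoforms positive log2 fold changes, none of which passed. Cox6a2 was at 852, 821 and 732 CPM in controls 1 to 3 and 750.0, 618 and 776 CPM in knockouts 1 to 3 (log2 fold change -0.17, SE 0.11, edgeR adjusted p = 0.627). Knockout 2 was the lowest library, and the other knockouts fell between controls 2 and 3. Cox6a1 was at 21.6, 21.7 and 21.3 CPM in controls 1 to 3 and 22.3, 23.0 and 23.4 CPM in knockouts 1 to 3 (log2 fold change 0.089, SE 0.072, edgeR adjusted p = 0.670), with every knockout above every control by a small margin. Cox7a1 was at 176, 175 and 145 CPM in controls 1 to 3 and 144, 141 and 172 CPM in knockouts 1 to 3 (log2 fold change -0.12, SE 0.12, edgeR adjusted p = 0.739). Knockout 3 was close to controls 1 and 2, and the other knockouts were close to control 3. Cox7a2 was at 97.4, 90.7 and 94.5 CPM in controls 1 to 3 and 108, 100.2 and 99.4 CPM in knockouts 1 to 3 (log2 fold change 0.12, SE 0.076, edgeR adjusted p = 0.582), without overlap. Cox8b was at 233, 210.2 and 235 CPM in controls 1 to 3 and 209, 200.4 and 229 CPM in knockouts 1 to 3 (log2 fold change -0.087, SE 0.089, edgeR adjusted p = 0.740) and Cox8a at 28.3, 28.1 and 25.1 CPM in controls 1 to 3 and 26.5, 28.8 and 30.3 CPM in knockouts 1 to 3 (log2 fold change 0.072, SE 0.089, edgeR adjusted p = 0.792), both with overlapping groups. With limma on log2(FPKM + 1) Cox6a1, Cox7a2 and Cox8a had log2 fold changes of 0.017, 0.051 and 0.0010, and the 3 muscle isoforms stayed negative.

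The ratio of the genes of a pair needs no scaling between libraries. For read counts of Cox6a2 over Cox6a1, controls 1 to 3 gave ratios of 39.4, 37.9 and 34.3, and knockouts 1 to 3 ratios of 33.6, 26.9 and 33.1. Every knockout ratio was below every control ratio. The mean log2 ratio differed by -0.26 (SE 0.12; exact two-sided permutation p = 0.1, the smallest that 3 against 3 libraries allow; 0.3 adjusted over the 3 pairs). The difference was -0.31 without control 3 and -0.15 without knockout 2. For Cox7a1 over Cox7a2, controls 1 to 3 gave ratios of 1.81, 1.93 and 1.53, and knockouts 1 to 3 ratios of 1.34, 1.41 and 1.73. Knockout 3 overlapped the controls, and the log2 difference was -0.24 (SE 0.15; exact permutation p = 0.2, adjusted 0.3). For Cox8b over Cox8a, controls 1 to 3 gave ratios of 8.26, 7.48 and 9.37, and knockouts 1 to 3 ratios of 7.88, 6.95 and 7.57, with a log2 difference of -0.16 (SE 0.11; exact permutation p = 0.3, adjusted 0.3), and -0.076 without control 3. The direction was thus the same in the 3 pairs, and no pair could pass at this number of animals.

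**Figure D4:**
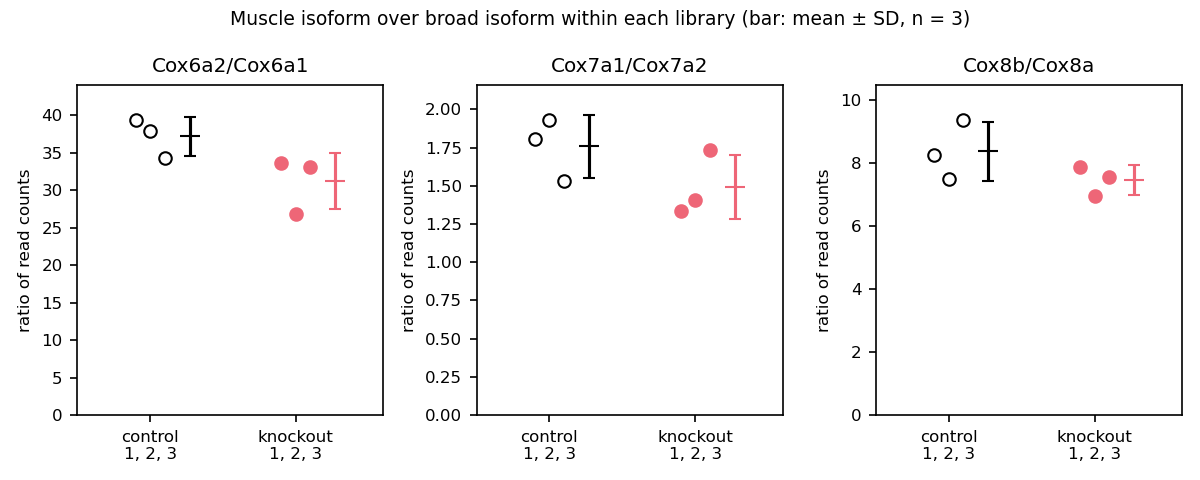
Ratio of read counts of the muscle isoform to the broad isoform of cytochrome c oxidase subunits 6a, 7a and 8 in each library (points, replicates 1 to 3 from left to right) with mean ± SD (bars, n = 3). The Cox6a2/Cox6a1 ratios of the knockouts (26.9 to 33.6) all lie below those of the controls (34.3 to 39.4), while the other pairs overlap.

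Complex IV as a whole showed no shared shift. Its 15 tested genes, the 6 isoform genes above included, had a median log2 fold change of 0.0080, with 8 positive and 7 negative. Without control 3 the median was -0.040, and with limma on log2(FPKM + 1) it was -0.062, with 5 positive and 10 negative. The median was 0.074 without control 1 and 0.065 without knockout 2. Cox4i1, an early-assembling subunit that binds the catalytic core, was at 616, 591 and 523 CPM in controls 1 to 3 and 586, 499 and 591 CPM in knockouts 1 to 3 (log2 fold change -0.046, SE 0.11, edgeR adjusted p = 0.902). Cox4i2 was at 2.67, 1.74 and 1.71 CPM in controls 1 to 3 and 1.75, 1.57 and 2.54 CPM in knockouts 1 to 3 (log2 fold change -0.062, SE 0.28, edgeR adjusted p = 0.951), a level at which a change of 1.5-fold was within the 95% interval. Cox6b1, a subunit on the outer face of the membrane, was at 295, 294 and 286 CPM in controls 1 to 3 and 311, 291 and 318 CPM in knockouts 1 to 3 (log2 fold change 0.071, SE 0.076, edgeR adjusted p = 0.754). Cox6b2 was at 0.0598, 0.0926 and 0.272 CPM in controls 1 to 3 and 0.0920, 0.198 and 0.310 CPM in knockouts 1 to 3 (log2 fold change 0.45, SE 0.71, edgeR adjusted p = 0.847), values that rest on at most 18 counts. Cox7b was at 325, 319 and 289 CPM in controls 1 to 3 and 336, 312 and 347 CPM in knockouts 1 to 3 (log2 fold change 0.092, SE 0.086, edgeR adjusted p = 0.715). Cox5a, Cox5b, Cox6c and Cox7c, which have no second isoform gene in the table, had log2 fold changes of -0.031, 0.045, -0.032 and 0.0080.

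In complex V 12 of 15 log2 fold changes were above 0, with a median of 0.045, which was 0.0033 without control 3. With limma on log2(FPKM + 1) the median was -0.026 and 3 of 15 were above 0. The median was 0.10 without control 1 and 0.074 without knockout 2. The F1 head subunits Atp5a1 and Atp5b, which form the catalytic sites, had log2 fold changes of 0.12 and 0.10. Atp5b stood at 3212, 3104 and 2561 CPM in controls 1 to 3 and 3326, 2956 and 3234 CPM in knockouts 1 to 3, with control 3 below the rest. Of the central stalk, gamma (Atp5c1) and delta (Atp5d) had log2 fold changes of 0.047 and 0.066, whereas epsilon (Atp5e) had the most negative value of the 47 genes. Atp5e was at 271, 208 and 257 CPM in controls 1 to 3 and 207, 207 and 214 CPM in knockouts 1 to 3 (log2 fold change -0.23, SE 0.11, edgeR adjusted p = 0.472). The 3 knockouts lay close together, near control 2 and below controls 1 and 3. Without control 2 its log2 fold change was -0.34 (edgeR adjusted p = 0.302), and without control 3 it was -0.20. Leaving out single libraries gave values from -0.34 to -0.16.

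The c subunits, which form the rotating ring in the membrane, come from 3 genes. Atp5g3 was the most abundant, with 41.7% ± 2.85 of their summed FPKM in controls and 42.7% ± 0.963 in knockouts (SD, n = 3 each). Atp5g1 took 32.1% ± 0.566 and 33.4% ± 1.301, and Atp5g2 took 26.2% ± 3.29 and 23.9% ± 1.87. Atp5g2 was at 233, 200.03 and 235 CPM in controls 1 to 3 and 205, 201 and 191 CPM in knockouts 1 to 3 (log2 fold change -0.16, SE 0.091, edgeR adjusted p = 0.546). Its control 2 value lay just below 2 of the knockouts. Atp5g1 was at 385, 333 and 308 CPM in controls 1 to 3 and 398, 311 and 335 CPM in knockouts 1 to 3 (log2 fold change 0.025, SE 0.13, edgeR adjusted p = 0.955) and Atp5g3 at 467, 389 and 333 CPM in controls 1 to 3 and 435, 357 and 394 CPM in knockouts 1 to 3 (log2 fold change -0.0035, SE 0.14, edgeR adjusted p = 0.996), and both had their lowest value among the controls in control 3. Transcripts of Atp5g1 and Atp5g2 shared an exact run of 21 bases at most, and those of the other pairs 12 bases at most. The peripheral stalk, which keeps the head from turning, gave log2 fold changes of 0.15 for Atp5f1 (subunit b), 0.030 for Atp5h (d), 0.022 for Atp5j (F6) and 0.048 for Atp5o (OSCP). The small membrane subunits Atp5j2 (f), Atp5k (e) and Atp5l (g) had log2 fold changes of 0.048, 0.043 and 0.045.

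Of the 3 genes without a subunit role, Cox7a2l, which takes part in joining complexes III and IV into supercomplexes, was at 137, 132 and 145 CPM in controls 1 to 3 and 127, 118 and 138 CPM in knockouts 1 to 3 (log2 fold change -0.11, SE 0.087, edgeR adjusted p = 0.672). Atp5s and Atp5sl, now named Dmac2l and Dmac2 in RefSeq, were at 9.41 and 24.7 FPKM, with log2 fold changes of 0.017 and 0.039.

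Assembly factors and regulators of complexes II to V were read from a separate list of 42 genes. In the deposited data 41 were found and 40 of those were tested, and edgeR called 0 of them higher and 0 lower, as did DESeq2 and limma-voom. The shares called over all genes were 0.0567% with edgeR, 2.14% with DESeq2 and 0.0354% with limma-voom. At an unadjusted p under 0.05, edgeR had 3 of 40 higher and 2 lower, near the shares over all genes of 6.56% and 5.07%. The list's median log2 fold change was -0.015, with 17 positive and 23 negative. The groups did not overlap for 6 of the 40 higher in knockouts and 5 lower, against 8.38% and 8.87% of all genes. Sdhaf1, which helps to insert iron-sulphur clusters into Sdhb, had the smallest p of the list. It was at 19.4, 17.5 and 19.9 CPM in controls 1 to 3 and 15.7, 15.8 and 15.7 CPM in knockouts 1 to 3 (log2 fold change -0.27, SE 0.085, edgeR adjusted p = 0.363), with every knockout below every control. Cox11, which delivers copper to cytochrome c oxidase, was at 30.6, 26.6 and 28.7 CPM in controls 1 to 3 and 23.8, 25.1 and 22.0 CPM in knockouts 1 to 3 (log2 fold change -0.28, SE 0.090, edgeR adjusted p = 0.363), also without overlap. Control 3 did not stand apart for either gene.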

How the data were processed

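RNA of 6 gastrocnemius samples was analysed, 3 controls and 3 knockouts grouped by their titles. Poly(A) libraries were made with a strand-preserving kit per the labels' protocols. The authors deposited 1 table with raw read counts per gene, FPKM and TPM, per the file headers. Build mm10 is named in the submitters' processing notes, as are StringTie 1.3.4d, Bowtie2 2.3.4.1, FastQC 0.11.7 and bcl2fastq 2.20.0, with no role for any. How reads were counted, and whether strand was used, is not given in the sources used here, so overlapping or near-identical genes are uncertain. TPM values, deposited by the authors, were not used. Columns of samples outside the series numbered 0.

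Counts were tested with edgeR 4.0.16 (R 4.3.3): filterByExpr with a minimum count of 10, TMM scaling, quasi-likelihood F test, Benjamini-Hochberg adjustment over all 14109 genes and a threshold of 0.05. Standard errors and 95% intervals came from the F statistic. CPM values used total counts times the TMM factors. Overlap of groups was read from log2 CPM with a prior count of 2. Isoform ratios used read counts plus 0.5 and an exact permutation test. The script was tested on simulated counts. Alternatives were DESeq2 1.42.0 (554 genes without an adjusted p), limma 3.58.1, other scalings and filters, FPKM plus 1 or 0.1, a replicate term and leaving out each library. Genes with full values were the isoform genes, the 2 with the smallest p in each complex and of the assembly list. Others were named as members. Members, lists and motifs were chosen with earlier results of these data known. Animals sharing a litter are not named in the labels, and p-values therefore cover only the spread among these 6 samples. Replicates of a group differed by more than counting noise (lowest chi-square over its degrees of freedom 35.1). All 49 identifiers were found in RefSeq's GRCm38.p6 table.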

Additional observations from a re-analysis of the deposited data

How the results depend on the processing

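With 3 animals a group, the median standard error was 0.097 (log2) for genes of at least 500 counts. In all alternatives run, 0 subunit genes and 0 assembly factors were called, including the adjusted p under 0.10 and the fit without control 3 and knockout 3 together, which was chosen after seeing the data. Over all genes the calls ranged from 0 with the replicate block to 290 with DESeq2 (2.14%), 141 without knockout 3 (0.982%) and 309 without control 3 and knockout 3 (2.18%), and numbered 8 or fewer in the other alternatives. The 3 isoform ratios stayed negative in all alternatives run. Without single libraries the log2 differences ran from -0.32 to -0.15 for Cox6a2/Cox6a1, from -0.35 to -0.16 for Cox7a1/Cox7a2 and from -0.24 to -0.076 for Cox8b/Cox8a. Medians ran from -0.020 to 0.085 for all 47 genes, from -0.073 to 0.059 for complex II, from 0.0067 to 0.17 for complex III, from -0.040 to 0.074 for complex IV, from 0.0033 to 0.10 for complex V and from -0.042 to 0.019 for the assembly factors. The cause of these shifts was not tested.

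By a rule asking for every correlation to exceed 0.1, the numbers in the labels did not pair the libraries. Over all genes, deviations of same-numbered libraries from their group means correlated at -0.0082, -0.19 and -0.098, and over the respiratory genes at 0.79, -0.29 and 0.51. With the replicate number as a block, 0 genes were called over all 14109 (8 without it), and the isoform ratios had exact p of 0.25, 0.5 and 0.25.

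FPKM plus 1 or plus 0.1, without TMM factors, lowered the median of all genes to -0.047 and -0.070 and that of the assembly factors to -0.082 and -0.084. The direction then turned for Sdhd (-0.052 and -0.053), Atp5s (-0.049 and -0.053) and Atp5sl (-0.049 and -0.050). With either addition it turned for Cox5b (-0.026), Cox6b1 (-0.0013), Cox7c (-0.062), Atp5c1 (-0.018), Atp5d (-0.0065), Atp5g1 (-0.047), Atp5h (-0.030), Atp5j (-0.049), Atp5o (-0.023), Atp5j2 (-0.025), Atp5k (-0.029) and Atp5l (-0.026). Upper-quartile scaling turned Cox7c (-0.0056). Atp5g3 turned with DESeq2's size factors (0.00027), DESeq2's test (0.00030), limma-voom (0.00064) and the replicate block (0.0054).

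Leaving out single libraries turned the sign of 19 genes, none called, within these ranges of log2 fold change. They were -0.20 to 0.047 for Sdhb, -0.028 to 0.072 for Sdhd, -0.11 to 0.068 for Uqcrfs1, -0.023 to 0.17 for Uqcrc1, -0.11 to 0.028 for Cox4i1, -0.30 to 0.17 for Cox4i2, -0.11 to 0.032 for Cox5a, -0.020 to 0.086 for Cox5b, -0.018 to 1.33 for Cox6b2 and -0.088 to 0.0034 for Cox6c. They were -0.040 to 0.027 for Cox7c, -0.033 to 0.10 for Atp5c1, -0.086 to 0.11 for Atp5g1, -0.11 to 0.13 for Atp5g3, -0.091 to 0.11 for Atp5h, -0.018 to 0.067 for Atp5j, -0.0044 to 0.075 for Atp5k, -0.028 to 0.059 for Atp5s and -0.079 to 0.14 for Atp5sl.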

Other observations

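The counts of the alpha globin genes Hba-a1 and Hba-a2 alternated between libraries. Hba-a1 was at 109, 2.96 and 120.3 CPM in controls 1 to 3 and 1.99, 4.66 and 127 CPM in knockouts 1 to 3, and Hba-a2 at 0.0798, 87.9 and 0.0908 CPM in controls 1 to 3 and 85.3, 427 and 0.164 CPM in knockouts 1 to 3. In each library one of the genes stood at or below 4.66 CPM and the other at or above 85.3 CPM. How reads were assigned between them was not tested. The beta globin Hbb-bs stood between 101 and 142 CPM in 5 libraries and at 559 CPM in knockout 2. Globin RNA comes from red blood cells, whose haem synthesis enzyme Alas2 was at 19.1 CPM in knockout 2 and at most 4.67 CPM elsewhere. The part of this in the respiratory genes was not tested.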
